A study of Mus musculus with 56 samples.

Results

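Single tumor cells that held Gkn3 transcripts were set against single tumor cells that did not. A Gkn3-expressing cell is here a cell with Gkn3 at 10 TPM or more (a gene's length-corrected share of a cell's transcripts), and the comparison cells had Gkn3 below 1 TPM. The cells of both groups were chosen by their measured Gkn3 level, so Gkn3 itself is given as a description. Of 50 cells, 19 were Gkn3-expressing (38%, exact Clopper-Pearson 95% interval 24.7% to 52.8%, counting error only), 28 were below 1 TPM (56%, 41.3% to 70.0%), and 3 lay between and entered neither group. The 50 cells came from 56 libraries, because 6 pairs of libraries with nearly the same profile (Pearson's r from 0.957 to 0.992, next highest 0.782) were averaged. The 19 cells rest on 24 libraries and the 28 cells on 29.

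All cells came from 1 male ApcMin/+ mouse, which carries 1 truncated copy of the tumor suppressor Apc in every cell and forms intestinal tumors. The mouse drank 2% dextran sulfate sodium, which injures the colon lining, for 5 days at 10 weeks of age, and its tumors were taken at 12 weeks. The cells of 3 colon tumors were mixed before sorting for viable Epcam+ Cd24+ cells without Cd31 and Cd45, and cDNAs positive for Lgr5 after 32 cycles of PCR were sequenced by the Bead-seq method. Both groups therefore share genotype, treatment, sort and Lgr5 selection. A cell's tumor of origin is not in the labels, so tumor and Gkn3 group cannot be told apart. With 1 mouse, cells are no replicates, and every difference below is a description of these cells with no test.

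Gkn3 encodes gastrokine-3, a small secreted protein of mucous cells of the stomach, and its transcript has also been listed among markers of Lgr5-positive intestinal stem cells in the mouse. Its relatives Gkn1 and Gkn2 are secreted by the surface mucous cells of the stomach. Tspan1 is a tetraspanin, a membrane protein with 4 membrane-spanning helices, found on many secretory and absorptive epithelia.

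Gkn3 (ENSMUSG00000030048) lies on the minus strand of chr6:87383256-87388935 in GRCm38. The 250 bases before the start of Gkn3 and before that of Ube2c, the gene with the widest difference between the groups, are printed from RefSeq (GRCm38.p6) to show the letters that the motif counts below refer to. They are chr6:87388936-87389185 on the minus strand and chr2:164769679-164769928 on the plus strand. Capitals mark the searched motifs on either strand. These were the cell cycle homology region TTTGAA, the box CCAAT and the TCF/LEF core CTTTGA, and a run such as CTTTGAA counts for the first and the last of them.
Gkn3: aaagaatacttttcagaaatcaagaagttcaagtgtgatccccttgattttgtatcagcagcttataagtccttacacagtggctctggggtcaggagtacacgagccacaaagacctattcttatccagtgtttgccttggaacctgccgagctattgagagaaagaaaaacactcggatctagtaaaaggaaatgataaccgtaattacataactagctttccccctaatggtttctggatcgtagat
Ube2c: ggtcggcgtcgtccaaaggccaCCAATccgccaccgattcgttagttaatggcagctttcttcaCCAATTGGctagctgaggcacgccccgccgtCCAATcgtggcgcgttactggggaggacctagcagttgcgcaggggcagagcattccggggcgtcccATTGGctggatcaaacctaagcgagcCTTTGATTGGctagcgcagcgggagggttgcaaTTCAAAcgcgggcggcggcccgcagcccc
The Gkn3 window held 0 of the 3 motifs. The Ube2c window held 1 TTTGAA, 6 CCAAT (a CCAATTGG counts on both strands) and 1 CTTTGA.

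Gkn3 ran in the 19 cells from 11.1 to 392.2 TPM, with a median of 96.8 TPM. The 4 highest cells, N710-N508, N704-N502, N706-N504 and N706-N507 by their index pairs, stood at 392.2, 322, 320.2 and 317 TPM. Just inside the limit were 2 averaged pairs at 11.1 and 14.8 TPM, each with 1 library below 10 TPM (9.07 and 9.51 TPM). Just outside it was a cell at 6.63 TPM, followed by 5.26 and 2.42 TPM. Among the 28 comparison cells Gkn3 was listed at 0 in 23 and at 0.26 to 0.92 TPM in 5. The highest of these came to 0.235% of the Gkn3 value of the richest library that shared an index with it, while the 19 cells came to between 2.82% and 230% of theirs. Gkn1 and Gkn2, the neighbouring paralogs on chromosome 6, were listed at 0 in every cell.

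**Figure D1:**
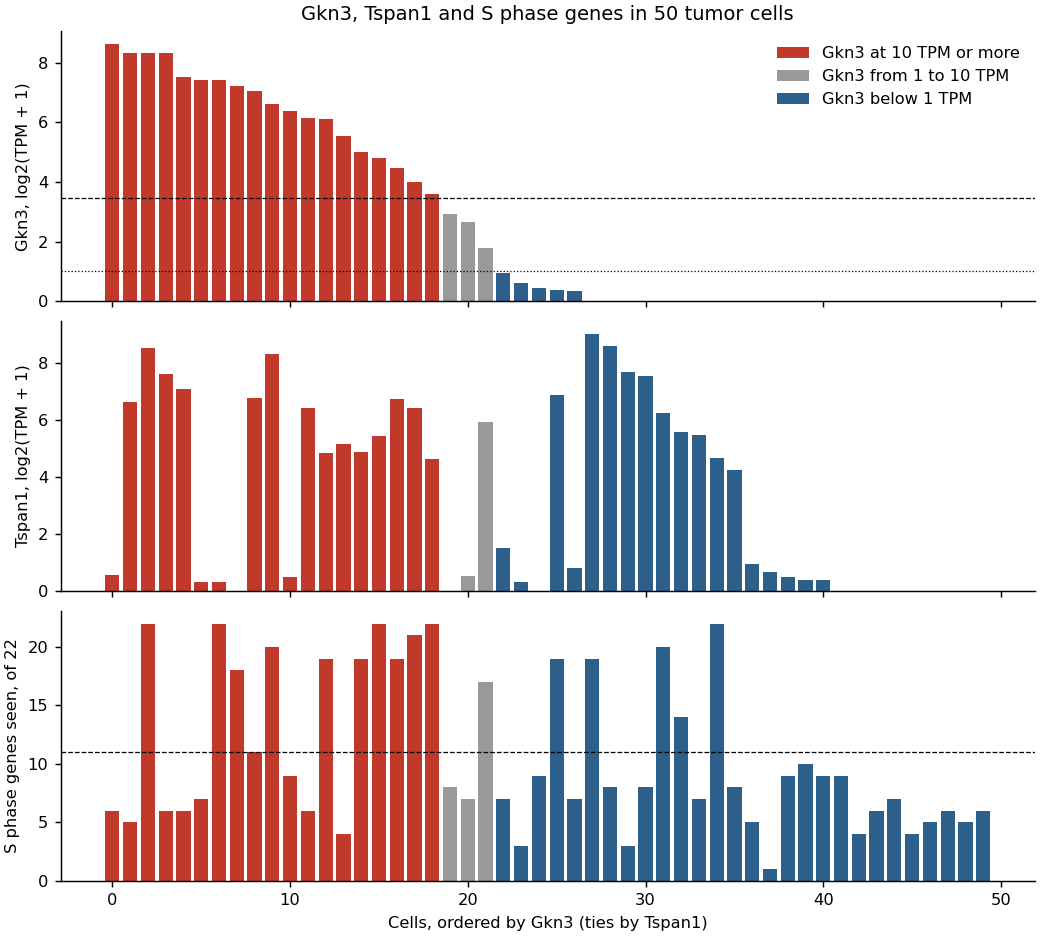
Each bar is 1 of 50 cells in the same order in all panels, from highest to lowest Gkn3; the panels give Gkn3 and Tspan1 as log2(TPM + 1) and how many of 22 S phase genes were seen at 1 TPM or more, and dashed lines mark 10 TPM (1 TPM dotted) and 11 genes. Gkn3 falls from 392.2 TPM to 0 along the axis, while Tspan1 is high in 14 of the 19 red cells and also in 10 of the 28 blue ones.

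Tspan1 (ENSMUSG00000028699, chr4:116161869-116167601, minus strand) was more frequent in Gkn3-expressing cells but did not set them apart. In the 19 cells it ran from 0 to 366 TPM with a median of 42.4 TPM, and 14 had 10 TPM or more. In the 28 comparison cells it ran from 0 to 517.1 TPM with a median of 0.485 TPM, and 10 had 10 TPM or more. The highest Tspan1 value of both groups was thus in a cell with Gkn3 below 1 TPM. The mean of log2(TPM + 1) was 2.24 higher in the Gkn3-expressing cells, and 2.43 higher without the library N704-N517, a comparison cell rich in defensin transcripts. Among the 17 cells of i7 indexes N708 to N710 the difference was -0.09, and among the 30 cells of N704 to N707 it was 3.18.

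Of the other genes used for sorting, Cd24a differed more than Epcam. Cd24a, which encodes the small surface glycoprotein Cd24, ran from 440.3 to 1540.1 TPM (median 932) in Gkn3-expressing cells and from 1.96 to 1212 TPM (median 453) in the comparison cells. Its difference was 1.21, and the Gkn3-expressing cell was the higher one in 82.0% of all pairings of a cell of one group with a cell of the other. Epcam differed by 0.45 and Lgr5, the stem cell receptor used in the PCR selection, by 0.51. Pecam1 (Cd31) and Ptprc (Cd45) stayed below 1 TPM in all cells. Prox1, the transcription factor named in the study's title, was lower by a difference of -0.75, with medians of 11.7 and 23.1 TPM. The sign turned among N708 to N710 (0.38). The 6 comparison cells there include N708-N503, with only 1316 genes seen and Prox1 at 0.44 TPM. The part of this cell in the turned sign was not tested.

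The comparison covered the 9165 genes seen at 1 TPM or more in 20% of cells. A gene was counted as past the fold at a difference of mean log2(TPM + 1) of 2 or more in either direction. This is a 4-fold ratio of the geometric means of TPM + 1, not of TPM. In the Gkn3-expressing cells 90 genes were higher by this measure (0.982%) and 14 were lower (0.153%). No gene past the fold had groups that did not overlap (0 of 90 and 0 of 14). The same count over all genes is not given. All genes together had a median difference of 0.18, with 63.2% above 0, and the central range from the 5th to the 95th percentile ran from -0.71 to 1.26. Gkn3-expressing cells had somewhat more genes seen, from 5054 to 7172 (median 6013) against 1316 to 7234 (median 5826). After a linear fit on genes seen per cell, 36 genes were higher and 36 lower, so the excess of higher genes was not kept. The 36 higher genes were all among the 90, and all 14 lower genes stayed past the fold. Without N704-N517, 85 genes were higher (0.93%) and 13 lower (0.142%), of which 84 and 13 were among those first counted. The comparison cell with the fewest genes, N708-N503, had 1316 genes seen, 85.1% of its TPM in Gm10925, Epcam at 14.4 TPM and Cd24a at 1.96 TPM. Without it 76 genes were higher and 16 lower, and 76 and 14 of these were among those first counted.

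**Figure D2:**
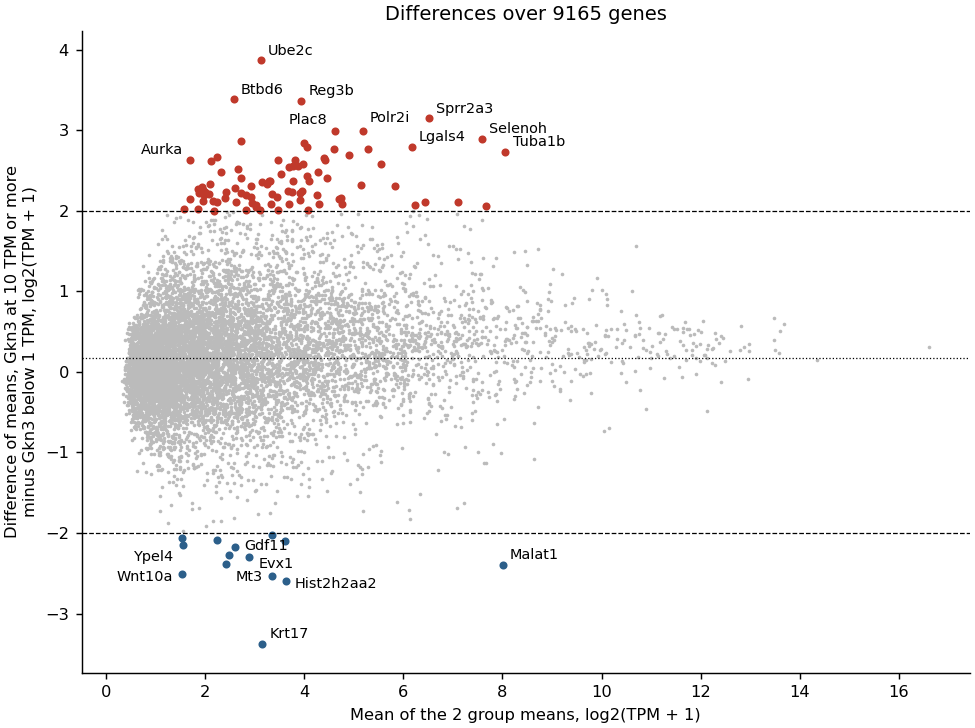
Each point is 1 of 9165 genes, with the mean of both group means on the x axis and the difference of the group means on the y axis, both in log2(TPM + 1); dashed lines mark 2 and -2 and the dotted line the median of 0.18. The 90 red genes lie above 2, led by Ube2c at 3.87, and the 14 blue genes below -2, led by Krt17 at -3.37.

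The widest difference was that of Ube2c, the ubiquitin-conjugating enzyme that works with the anaphase-promoting complex to end mitosis. It was seen in 13 of 19 Gkn3-expressing cells, at 0 to 1432 TPM (median 68.1), and in 7 of 28 comparison cells, at 0 to 860.0 TPM (median 0). The difference was 3.87 over all cells, 1.46 among N704 to N707 and 5.86 among N708 to N710. After a linear fit on the S phase and G2/M levels it was 1.39. Ube2c overlaps Tnnc2 on the other strand, and the sources used here do not say whether strand was used in counting.

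Ube2c belongs to the cell cycle genes, whose 2 lists had the highest medians of the 24 lists described. Of 30 listed G2/M genes 19 passed the filter, all 19 were higher in the Gkn3-expressing cells, and 8 were past the fold, with a median difference of 1.89 against 0.18 over all genes. Among them were Cks2, a regulatory subunit of cyclin-dependent kinases (medians 109 and 23.7 TPM, difference 2.77), Aurka, a mitotic kinase (medians 9.71 and 0 TPM, difference 2.63), Cdk1 (2.23), Birc5 (2.62) and the topoisomerase gene Top2a (medians 13.3 and 0.04 TPM). All 22 S phase genes passed the filter, 21 of them were higher and 3 past the fold, with a median difference of 1.52. The 3 were Mcm5, a subunit of the replicative helicase (seen in 12 of 19 and 6 of 28 cells, difference 2.49), Tyms, the thymidylate synthase (2.37), and Dut, the dUTPase (2.28). Pole3, a DNA polymerase epsilon subunit outside the lists, was higher by 2.84. Over the 9165 genes compared, 63.2% were higher and 0.982% were higher past the fold.

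These genes were not spread evenly over the Gkn3-expressing cells. At least 11 of the 22 S phase genes were seen in 11 of the 19 cells (57.9%, exact interval 33.5% to 79.7%) and in 5 of the 28 (17.9%, 6.06% to 36.9%). At least 15 of the 30 G2/M genes were seen in 8 of 19 (42.1%, 20.3% to 66.5%) and in 2 of 28 (7.14%, 0.877% to 23.5%), and each of those cells also passed the S phase limit. These intervals hold counting error only. Cells of 1 mouse are no replicates, so the intervals are no test of the groups. Cells past either limit are called cycling cells from here on, by their transcripts alone. Gkn3 itself was not highest in them: it ran from 11.1 to 320.2 TPM (median 68.1) in the 11 cycling cells and from 45.2 to 392.2 TPM (median 178) in the other 8. Mcm5 was seen in all 11 cycling Gkn3-expressing cells and in 1 of the other 8. Mki67, a marker of proliferating cells, was seen in 8 of the 11 and in 1 of the 8. Both genes belong to the lists that define cycling cells, so these counts follow in part from that choice.

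With the cycling cells left out of both groups, 8 cells were compared with 23, and 154 genes were higher (1.76%) and 59 lower (0.675%) of 8739. Such smaller groups also give wider differences, so the counts are not read against each other. Of the 90 higher genes 49 were at 2 or more again, counting also genes under the filter in those cells, and 88 kept their sign. All 14 lower genes kept their sign and 11 stayed at -2 or less. The genes were picked by their difference over all cells, these included, which favours a kept sign. The list medians of the cell cycle genes came to 0.20 (G2/M) and 0.05 (S phase) without cycling cells. The cycling cells were left out by these same lists, so a fall of the lists and of their members was built in. Of the list members Top2a stood at 0.04, Mcm5 at 0.23 and Ube2c at 2.07. Reg3b, Btbd6 and Krt17, outside the cell cycle lists, were at least as far apart as before. How much of the Gkn3 comparison the unequal number of cycling cells makes up was not tested.

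**Figure D3:**
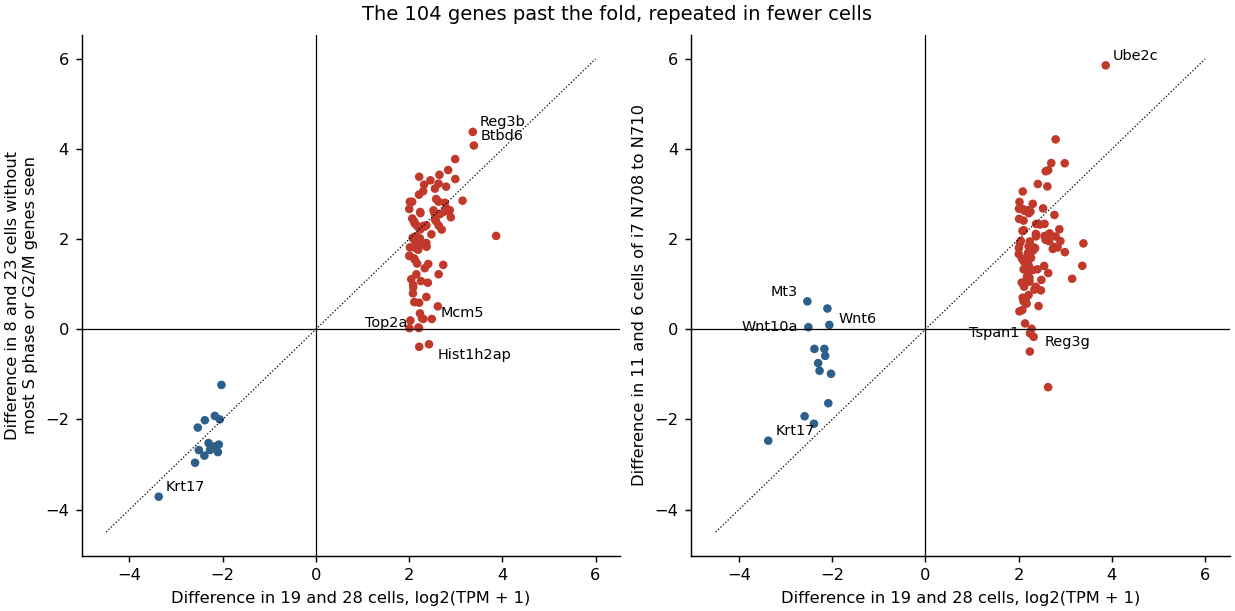
Each point is 1 of the 104 genes past the fold, with its difference in all 19 and 28 cells on the x axis and on the y axis its difference without cycling cells (left, 8 and 23 cells) or among i7 indexes N708 to N710 (right, 11 and 6 cells), in log2(TPM + 1); the dotted line marks equal values. Left, Top2a and Mcm5, members of the lists that define cycling cells, lie near 0, and Reg3b and Btbd6 lie near or above 4. Right, Wnt10a, Wnt6 and Mt3 cross 0 from below and Tspan1 and Reg3g from above.

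The antimicrobial lectin Reg3b was among the 3 widest differences of the higher genes. Reg3b, a secreted C-type lectin made by gut epithelium in inflammation, was seen in 15 of 19 Gkn3-expressing cells at up to 2591 TPM (median 117) and in 11 of 28 comparison cells at up to 583 TPM (median 0), a difference of 3.37. Its paralog Reg3g had medians of 279 and 1.66 TPM and a difference of 2.32, and its highest value, 2401 TPM, was in a comparison cell. Near-identical stretches of Reg3b and Reg3g could share reads. The Reg3 genes stood apart from their list: of 22 antimicrobial and inflammation genes 15 passed the filter, 5 of these were higher and 10 lower, and the median was -0.16. Over all genes 63.2% were higher, with a median of 0.18. Il18 (-1.37) and the chemokine Ccl20 (-1.26) were lower, the latter seen in 3 of 19 and 8 of 28 cells.

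Cycling and other cells gave different Reg3 values. Among the cells that were not cycling, Reg3b was seen in 7 of 8 Gkn3-expressing and 6 of 23 comparison cells, a difference of 4.38. Some of these lay near the limit of 1 TPM. They were N710-N508 and N704-N502, with the highest Gkn3, at 1.01 and 1.05 TPM, and the comparison cells N706-N508 and N707-N507 at 2.36 and 2.04 TPM. Reg3g differed by 3.21. Among the cycling cells, 11 and 5 in number, Reg3b was at -0.41 and Reg3g at -2.22, with Reg3b seen in 8 of 11 and 5 of 5 cells. Sprr2a3 (2.85 and -1.85), Tspan1 (2.58 and -1.31), Wfdc2 (3.12 and -0.69) and Lgals4 (2.69 and 0.01) had the same pair of signs or a value near 0 in the cycling cells. Whether these differences between cycling and other cells exceed the spread among cells was not tested.

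Several further genes past the fold are known from epithelial surfaces. Lgals4, a galactose-binding lectin of gut epithelium, had medians of 369 and 38.4 TPM (difference 2.79) and was seen in 18 of 19 and 21 of 28 cells. Plac8 was seen in 18 of 19 and 16 of 28 cells, with medians of 96.0 and 3.12 TPM (2.99). Sprr2a3, a small proline-rich protein, had medians of 381 and 8.27 TPM (3.15), but its highest value, 9019 TPM, was in a comparison cell. Its difference was 0.98 after a linear fit on the S phase and G2/M levels. It has close copies, among them Sprr2a1 (2.14), so its reads could be divided among them. The gap junction gene Gjb1 was higher by 2.63 over all cells and lower among N708 to N710 (-1.29).

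The other genes of the 15 widest higher differences with 1 sign in all index groups have mixed roles. Btbd6, an adaptor of a cullin-3 ubiquitin ligase, was seen in 12 of 19 and 4 of 28 cells, with medians of 72.5 and 0 TPM (3.39), and overlaps Brf1 on the other strand. Polr2i, a subunit of RNA polymerase II (2.99), Srrt, an RNA processing factor (2.70), and Eif4ebp3, which binds the cap-binding factor eIF4E (2.79), concern RNA and translation. Selenoh, a selenoprotein of the nucleolus, was seen in all 19 cells at 27.8 to 1587 TPM (median 696) and in 21 of 28 at 0 to 1112 TPM (median 282), a difference of 2.89. Ppp1r1b, an inhibitor of protein phosphatase 1, was higher by 2.76 and Tuba1b, an alpha tubulin with close paralogs, by 2.73. In none of them did the groups separate: over the 90 genes the share of pairings with the Gkn3-expressing cell on top ran from 62.5% to 86.7% (median 72.9%), with a median of 53.1% over all genes.

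**Figure D4:**
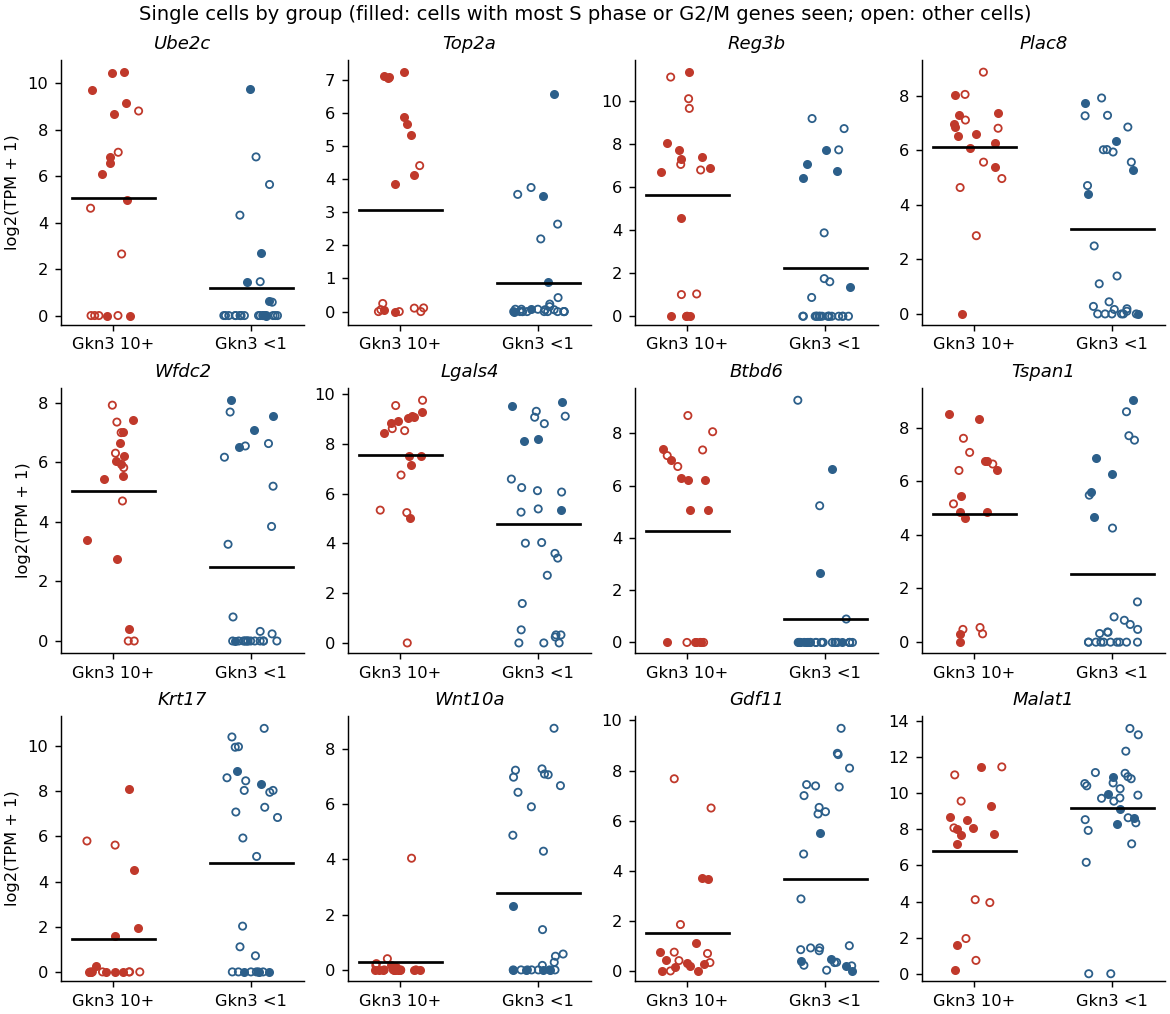
Each point is 1 cell, with 19 Gkn3-expressing cells in red and 28 comparison cells in blue, on log2(TPM + 1) axes; filled points are cycling cells, open points the others, and the horizontal line is the group mean. Filled red points carry most of Top2a, a gene of the lists that define cycling cells. Some open red points share the high Reg3b and Btbd6 values, and Krt17, Wnt10a and Gdf11 are near 0 in most red cells and spread widely among open blue ones.

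The genes lower in Gkn3-expressing cells were fewer, and Krt17 led them. Krt17, a keratin of injured and basal epithelia, was seen in 6 of 19 Gkn3-expressing cells at 0 to 271 TPM (median 0) and in 18 of 28 comparison cells at 0 to 1755 TPM (median 86.5), a difference of -3.37. It remained at -2.47 among N708 to N710 and at -3.71 without cycling cells. Of the 23 comparison cells that were not cycling, 16 had Krt17. It was the 1 member of the regenerative and fetal-like list past the fold, and the list's median was 0.08 with 10 of 17 members past the filter. Ly6a, the surface antigen Sca-1 of regenerating epithelium, went the other way (8 of 19 and 4 of 28 cells, 1.81).

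Malat1, an abundant nuclear RNA, had medians of 255 and 906 TPM and a difference of -2.39, and was below 1 TPM in 2 cells of each group. The homeobox gene Evx1 was seen in 8 of 19 and 21 of 28 cells with medians of 0.30 and 31.3 TPM (-2.30), and Evx1os, which overlaps it on the other strand, was at -2.27. Because strand use is not given, reads of Evx1 and Evx1os cannot be told apart. Patz1, a zinc finger transcription factor, had medians of 5.90 and 31.9 TPM (-2.03) and, of the 14 lower genes, the lowest share of pairings with the Gkn3-expressing cell on top, 21.3%. Ypel4 was seen in 2 of 19 and 16 of 28 cells (-2.15). Tubb4a, a beta tubulin, was at -2.38, and Hist2h2aa2, a histone gene with near-identical copies, at -2.59.

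Of the remaining genes with the smallest differences that kept 1 sign in all index groups, Hist2h3c1 (-1.97), Fkbp11 (-1.91), Cbarp (-1.88), H2-K2 (-1.85) and Bex4 (-1.85) were short of the fold. H2-K2 and Hist2h3c1 also belong to families with near-identical members. Cbarp, seen in 1 of 19 and 11 of 28 cells, overlaps Stk11 and Atp5d.

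The secreted ligands among the lower genes were Wnt10a, Wnt6 and Gdf11. Wnt10a was seen in 1 of 19 Gkn3-expressing cells, at 15.5 TPM, and in 13 of 28 comparison cells at up to 430.5 TPM (-2.51). Wnt6, its neighbour on chromosome 1, was seen in 2 of 19 and 14 of 28 cells (-2.06). Both were close to 0 difference among N708 to N710 (0.05 and 0.10), where 6 comparison cells lie, N708-N503 among them. Gdf11, a ligand of the TGF-beta family, was seen in 6 of 19 and 15 of 28 cells (-2.17) and was the 1 member past the fold of 10 tested in the BMP and TGF-beta list (median -0.07). The metallothionein gene Mt3 (-2.53) and the endoplasmic reticulum gene Sdf2l1 (-2.10) likewise turned sign in N708 to N710 (0.62 and 0.46).

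All 22 Wnt target and feedback genes passed the filter. Of these 17 were lower and 5 higher in the Gkn3-expressing cells, with a median difference of -0.36. Of all genes, 63.2% were higher and their median was 0.18. The 2 list members past the fold were the ligands Wnt10a and Wnt6. Axin2, a negative regulator induced by Wnt signalling, had medians of 3.64 and 7.36 TPM (-0.90), Myc 4.33 and 17.4 TPM (-1.08), Nkd1 13.95 and 22.3 TPM (-0.39) and Notum 40.6 and 60.4 TPM (-0.10). The list median was -0.13 without cycling cells. Axin2, Myc, Nkd1 and Notum all had the opposite sign among N708 to N710 (0.48, 0.42, 0.55 and 0.84). The 6 comparison cells there include N708-N503, with 1316 genes seen. Its mean log2(TPM + 1) over the Wnt list was 0.51, against a median of 3.19 over the 28 comparison cells. The part of this cell in the turned signs was not tested. Nkd1 and Notum also turned sign without cycling cells (0.17 and 0.49), and Notum was above 0 among N704 to N707 as well (0.28).

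The intestinal stem cell list, 21 of 22 members past the filter, had 17 higher and 4 lower members and a median of 0.28, close to the 0.18 of all genes. Of all genes, 63.2% were higher. Cdca7, a chromatin gene of proliferating progenitors, was past the fold, seen in all 19 and in 18 of 28 cells, with medians of 52.2 and 6.54 TPM (2.48). Igfbp4, an insulin-like growth factor binding protein (1.37), Slc12a2, an ion cotransporter (1.33), and Rgmb, a BMP co-receptor seen in 11 of 19 and 2 of 28 cells (1.17), were higher but short of it. Olfm4 was never seen at 1 TPM in any cell.

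Most genes of gastric mucous cells were not seen beside Gkn3, so no stomach cell type is given to these cells. Of 24 listed genes 13 were below 1 TPM in every cell, among them Tff1, Tff2, Muc5ac, Muc6 and Pgc besides Gkn1 and Gkn2. The 5 that passed the filter were all higher, with a median of 0.83, where 63.2% of all genes were higher and their median was 0.18. Wfdc2, a secreted protein of many glandular epithelia, was the 1 past the fold, seen in 16 of 19 and 11 of 28 cells with medians of 61.0 and 0.09 TPM (2.55), followed by Vsig1 (1.04) and Glipr1 (0.83). Of 21 tetraspanins 17 passed the filter, 11 of them higher and 6 lower, a share near the 63.2% of all genes, and Tspan1 was the 1 past the fold; Tspan12 (0.96) and Cd81 (0.88) came next.

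**Figure D5:**
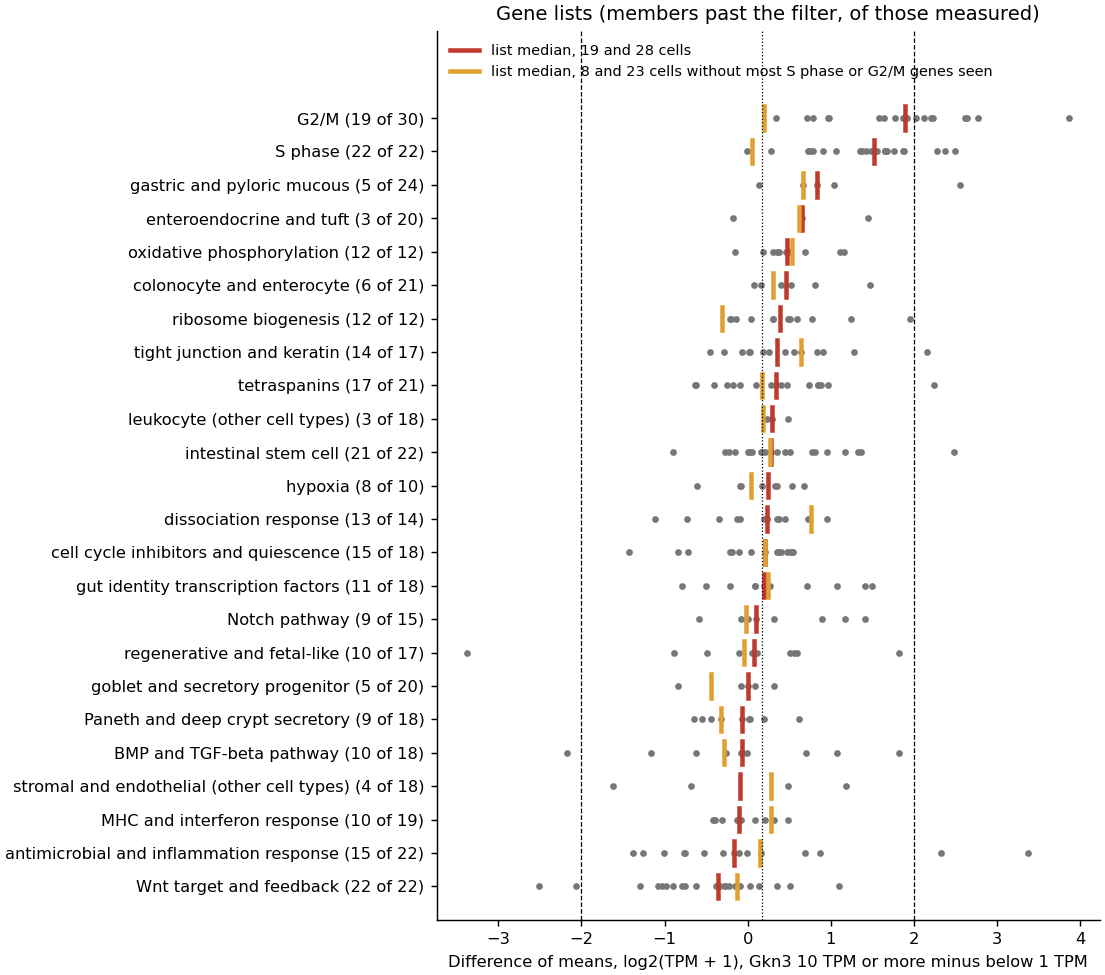
Each grey point is a gene of the list named at left, at its difference of mean log2(TPM + 1) between Gkn3-expressing and comparison cells; red bars are list medians over all 19 and 28 cells, orange bars without cycling cells, the dotted line is the median of all genes and dashed lines mark 2 and -2. The G2/M and S phase medians of 1.89 and 1.52 move to 0.20 and 0.05 without cycling cells, which were left out by these same lists.

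Lists of differentiated intestinal cells had few members past the filter and none past the fold. They held 9 of 18 Paneth and deep crypt secretory genes (median -0.07), 5 of 20 goblet genes (0.01), 6 of 21 colonocyte and enterocyte genes (0.46) and 3 of 20 enteroendocrine and tuft genes (0.66). Oxidative phosphorylation genes, 12 of 12 past the filter, had a median of 0.47, and ribosome biogenesis genes, 12 of 12, one of 0.39 (-0.30 without cycling cells). The epithelial junction and keratin list had a median of 0.35 with Cldn2, a pore-forming claudin, past the fold (medians 56.2 and 26.2 TPM, 2.15). Notch (0.11), hypoxia (0.25), dissociation response (0.23), cell cycle inhibitor (0.21), gut transcription factor (0.19) and MHC and interferon (-0.10) lists had medians within 0.3 of that of all genes and no member past the fold.

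Other cell types were checked in the same cells. Of 18 stromal and endothelial genes 4 passed the filter and 10, among them Col1a2, Col3a1, Dcn, Pdgfrb and Pecam1, were never seen. Their summed level ran from 17.7 to 2859 TPM in Gkn3-expressing and from 1.34 to 12820.0 TPM in comparison cells, with the widest difference in Mgp, a matrix protein gene (medians 9.64 and 299 TPM, -1.62). Vim, which encodes the filament protein vimentin, had medians of 231 and 495 TPM (-0.68). Acta2, an actin of smooth muscle, had medians of 12.5 and 0.05 TPM (1.18). Of 18 leukocyte genes 3 passed and 12, among them Ptprc and Cd3e, were never seen, with sums of 2.18 to 285 TPM and 0 to 473 TPM, in which Cd14 had medians of 107 and 102 TPM (0.30). Of the 4 stromal and endothelial genes past the filter, 2 were higher and 2 lower, with a median of -0.10 (0.28 without cycling cells). Mgp and Vim, lower in the Gkn3-expressing cells, had medians well above 0 in both groups, and their part in the differences was not tested.

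The groups were unevenly spread over the sequencing indexes. Gkn3-expressing and comparison cells numbered 8 and 22 in i7 indexes N704 to N707 and 11 and 6 in N708 to N710, and 12 and 14 and 9 and 15 in the lower and upper i5 indexes. Averaged cells with a library in each i5 group count in both. Index N707 had 0 of 8 libraries at 10 TPM of Gkn3, and N503 had 0 of 7. Of the 90 higher genes 85, and of the 14 lower genes 10, had 1 sign in all 4 index groups and without N704-N517. The 90 and 14 genes were picked by their difference over the same cells, which favours a kept sign. The share over all genes is not given. The 6 comparison cells of N708 to N710 include N708-N503, the cell with the fewest genes seen. The part of the index groups in the differences was not tested.

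Over all 50 cells, the genes whose levels followed Gkn3 most closely were only in part those past the fold. Of the 10 with the highest rho, Aurka (difference 2.63) and Usp1 (2.16) were past it. Btbd6 and Cks2, with wider differences, had a rho of 0.52 each. Spearman's rho with Gkn3 was highest for Clpb, a mitochondrial protein disaggregase (0.69), Stra6l (0.65), Panx1, a membrane channel (0.64), Aurka (0.59) and Eif4e, the cap-binding translation factor (0.57). Plac8l1 (0.55), Gch1 (0.55), Psmd7 (0.54), Uck2 (0.53) and Usp1 (0.52) followed. These points share 1 mouse and unknown depths, and many are 0 for both genes. Clpb was seen in 12 of 19 and 4 of 28 cells with a top value of 9.15 TPM, and Stra6l in 10 of 19 and 1 of 28 cells with a top value of 16.8 TPM. Eif4e was present in all 19 cells at 11.02 to 58.7 TPM and in 23 of 28, with medians of 28.7 and 11.6 TPM.

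The promoter letters were counted for the same genes. RefSeq entries matched 79 of the 90 higher genes, with 96 windows of 250 bases, and 7363 of the 9165 genes tested. TTTGAA was in 23.96% of the windows of higher genes (23 of 96), in 10.5% of those of all genes tested and in 15.99% of all 32851 RefSeq windows. CCAAT was in 32.3%, 36.02% and 33.9%, and CTTTGA in 11.5%, 10.5% and 13.8%. Of the 14 lower genes 12 matched, with TTTGAA in 2 of 13 windows. A match is a description of these letters and not a binding site.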

How the data were processed

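Single colon tumor cells of 1 mouse were profiled by RNA-seq. The authors deposited TPM for 24410 Ensembl gene IDs in 56 libraries; the tools named, per the submitters' processing notes, are RSEM 1.2.31, Bowtie2 2.2.9 and bcl2fastq 1.8.4, and the build is GRCm38.p4. The sources used here give neither their settings nor the annotation release or strand use. A cell's depth cannot be read from TPM and is unknown, and an exact 0 is read as listed at 0. GENCODE M21 named 24235 IDs.

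Libraries were averaged in pairs where Pearson's r of log2(TPM + 1) was above 0.9, over genes that reached 1 TPM in 20% of the libraries. The measure was the difference of mean log2(TPM + 1), a pseudocount of 1, over genes that reached 1 TPM in 20% of the cells; log2 values are on this scale and understate low genes. No test was made, since groups were made from a measured value in 1 mouse. The script was tested on simulated data. Python 3.11.15, pandas 2.3.3 and SciPy 1.17.1 were used.

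The members and the 24 lists were chosen with earlier results of these data known. Named genes were Gkn3, Tspan1 and paralogs, the 15 highest and 15 lowest differences with 1 sign in every index group and without N704-N517 (predicted genes named only among the first 5), the 10 highest rho with Gkn3, and the 3 widest members of lists. Sort and selection genes, the genes that turned sign, and further list members were picked with their values in view. Alternatives changed the cells, the Gkn3 limits, pseudocount, filter, scaling, summary and index group. Leaving out cycling cells, the fit on cell cycle levels, and the fit on genes per cell without the cell with the fewest genes were added after the data were seen.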

Additional observations from a re-analysis of the deposited data

How the results depend on the processing

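The counts of 90 higher and 14 lower genes depend on the settings. With a pseudocount of 0.1 they were 485 and 70 (the median of all genes moved from 0.18 to 0.36), and with 10 they were 4 and 2. Differences of medians gave 565 and 115. TPM rescaled without ribosomal protein genes and Gm10925 gave 154 higher genes. The i7 indexes N704 to N707 gave 175 and 76, and N708 to N710 gave 291 and 61. The i5 indexes gave 175 and 59 (lower 4) and 150 and 67 (upper 4). The fit on genes per cell gave 36 and 36, and 38 and 40 without the cell with the fewest genes. A fit on the S phase and G2/M levels gave 34 and 27, with 24 and 7 among those first counted, and leaving out cycling cells 154 and 59. Lower genes numbered 34 without cells with 15 or more G2/M genes and 28 with Gkn3 at 50 TPM or more. Leaving out each Gkn3-expressing cell in turn gave 78 to 108 higher and 12 to 17 lower genes. The cause of these moves was not tested. In all, 180 genes were followed over 41 settings, of which 19 only left out 1 Gkn3-expressing cell. Turned signs were counted only for genes past the fold and were found 22 times. The genes that turned are named here by setting. Within N708 to N710 they were Tspan1 (-0.088), Reg3g (-0.17), Elovl1 (-0.49), Gjb1 (-1.29), Wnt10a (0.046), Wnt6 (0.10), Mt3 (0.62) and Sdf2l1 (0.46), and within the upper i5 indexes Hist1h2ap (-0.32). After the fit on S phase and G2/M levels they were Birc5 (-0.041), Cdk1 (-0.16), Aurkb (-0.24), Tk1 (-0.26), Hist1h2ae (-0.42), Hist1h2ap (-1.59) and Crip1 (-0.074). Without cells with 15 or more G2/M genes they were Aurkb (-0.17), Tk1 (-0.059), Hist1h2ae (-0.15) and Hist1h2ap (-1.27), and without cycling cells Hist1h2ap (-0.33) and Nrm (-0.39). No paired analysis was possible because the samples form 1 group. With 1 mouse, unknown depth and many values at 0, differences of single genes carry an error that these data cannot give.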
